A study of Oryza sativa with 6 samples.

Results

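The K+-specific IP-G4s of 600 bp or more are the longest stretches of rice DNA that the BG4 antibody pulled down reproducibly after folding in potassium and not reproducibly after folding in sodium. They were chosen by length alone from the deposited list of K+-specific IP-G4s, as the rows whose end minus start is at least 600 bp, and there were 773 of them among 16725 K+-specific rows (4.62%). The whole series lists 25509 specific rows, of which 8784 are Na+-specific. As the comparison, 11154 K+-specific rows of 200 to 400 bp were used. The genomic DNA came from whole wild-type (WT) japonica rice seedlings grown in soil for 2 weeks and cross-linked with formaldehyde. It was fragmented, denatured and refolded in PEG200, a molecular crowder, with KCl (group K+PEG) or with the same concentration of NaCl (group Na+PEG), and 2 libraries of each group were sequenced beside 2 Input libraries that had seen no antibody. Only the folding buffer differed between the groups, since antibody binding and washing took place in a KCl buffer for both. Folding of naked DNA in a tube is a model of what the sequence can form and not of what it forms in the plant.

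A G-quadruplex (G4) forms where runs of guanines line up into stacked planes of 4 bases, the G-quartets, held by Hoogsteen hydrogen bonds. A monovalent cation sits in the central channel, and K+ generally stabilises the stack better than Na+. BG4 is an engineered antibody that recognises the folded structure rather than a sequence. The enriched DNA, read against Input, marks where BG4 bound folded DNA, and so depends on antibody binding as well as on folding. An IP-G4 is such an enriched region, and a listed row is the part shared by the peaks of both replicates. The length of a row depends on the sheared fragments, on how far the enrichment extends and on how well these peaks align.

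To show what kind of sequence was at issue, the study's synthetic oligonucleotides for one locus of each specific type are given 5′ to 3′, with runs of at least 3 guanines in capitals. Where these loci lie in the genome was not analysed here, and neither is tied to a particular long IP-G4.
K+-specific oligo: GGGcggctGGGaggccGGGGtGGGGGG
Na+-specific oligo: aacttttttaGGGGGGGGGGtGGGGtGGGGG
The K+-specific oligo has 27 bases, 20 of them guanines over its whole length. It has 4 separate runs of 3 to 6 guanines, and the remaining guanines lie between the runs. The Na+-specific one has 31 bases and 19 guanines, and its 3 runs include one of 10 guanines behind a stretch rich in thymine. For the Na+-specific sequence the paper reports a similar circular dichroism amplitude, an optical sign of folding, in K+ and Na+. This was measured in water without PEG200. The BG4 signal of the same sequence on dot blots, where the buffer held PEG200, was nevertheless stronger in Na+. The paper proposes a difference in BG4 binding efficiency as a possible cause. A specific row is therefore not proof that the G4 forms with one cation only.

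The long K+-specific IP-G4s had a median length of 703 bp, with quartiles of 643 and 807 bp. Most lay close to the limit, with 376 from 600 to under 700 bp and 196 from 700 to under 800 bp. A further 145 measured 800 to under 1000 bp, and 56 reached 1000 bp or more. Although they were 4.62% of the rows, they held 579 of the 4982 kb in the K+-specific list (11.6%). These lengths chose the rows and are given as a description. Exactly 3 rows were 600 bp long, at Chr4:6799549-6800148, at Chr8:8264366-8264965 and at Chr12:3826776-3827375. Another 7 rows missed the limit at 599 bp, among them rows at Chr3:5907242-5907840, at Chr7:600380-600978 and at Chr9:13776112-13776710. Nothing separated the classes at this point, with 38 rows in the 10 bp from the limit upwards and 54 in the 10 bp below it. Only 54 of the 8784 Na+-specific rows (0.615%, 95% Wilson interval 0.471 to 0.801) were as long, with a maximum of 1043 bp. All intervals cover counting error only, and they are too narrow where neighbouring rows are not independent.

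Coordinates are those of the MSU v7.0 rice genome that the authors aligned to. Only specific rows were counted around each locus, and IP-G4s found under both conditions were not. The longest row, at Chr11:12289943-12291789 (1847 bp), had K+-specific but no Na+-specific rows within 50 kb. Its nearest other K+-specific row was 527 bp away, 12 such rows had their centre within 50 kb, and the nearest Na+-specific row was 167 kb off. The second longest, at Chr10:2677343-2678750 (1408 bp), and the fourth, at Chr3:25668803-25670167 (1365 bp), also had no Na+-specific row within 50 kb, beside 9 and 10 K+-specific ones. The third longest lay at Chr7:15428362-15429737 (1376 bp), with a Na+-specific row 5.56 kb away. The others of the 10 longest were mixed in this respect. On chromosome 6 from 15310617 to 15311910 (1294 bp) and at Chr9:8174391-8175593 (1203 bp), a Na+-specific row was only 649 and 704 bp away, nearer than any K+-specific one. On chromosome 1 from 18649637 to 18650924 (1288 bp) and Chr1:10405480-10406683 (1204 bp), 6 Na+-specific rows each lay within 50 kb, beside 4 and 10 K+-specific ones. The densest surroundings among these 10 were at Chr5:15430443-15431700 (1258 bp), with 22 K+-specific and 3 Na+-specific rows within 50 kb. The tenth row of this group was at Chr6:26526864-26528118 (1255 bp), with a K+-specific row at 681 bp and a Na+-specific row at 28.6 kb.

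How a long IP-G4 comes to be K+-specific could be followed where the lists of the single libraries are used here, from position 1 to 5855384 of chromosome 1. There the K+PEG libraries held 126 of 748 and 176 of 871 peaks of 600 bp or more (16.8% and 20.2%), and the Na+PEG libraries 84 of 803 and 84 of 630 (10.5% and 13.3%). Long peaks were thus common in all 4 libraries, and their share was higher in both K+PEG libraries than in both Na+PEG libraries. Reproducible segments, the parts shared by the peaks of both replicates, were rebuilt here from these lists. They included 78 of at least 600 bp under K+PEG. Of these 78, 74 overlapped a reproducible Na+PEG segment and 4 did not, so that 5.13% (95% Wilson interval 2.01 to 12.5) were K+-specific. Of the 367 segments of 200 to 400 bp, 149 were K+-specific (40.6%, 35.7 to 45.7). The share fell with each step in length, from 75% of 40 segments under 200 bp to 21.6% of 102 segments over 400 and under 600 bp. Under Na+PEG the order was the same, from 50% of 68 segments under 200 bp to 0 of 40 segments of 600 bp or more (95% Wilson interval 0 to 8.76%). Fold enrichment over Input, as given by the authors' peak caller, rose with length as well. Its median was 5.67 and 5.87 for the long peaks of K+PEG replicates 1 and 2, against 3.91 and 3.49 for their peaks of 200 to 400 bp. The part of this in the falling share was not tested. A segment also stops being specific at an overlap of 1 bp, so a longer segment has more bases that can be overlapped. The part of length itself was not tested either.

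**Figure D1:**
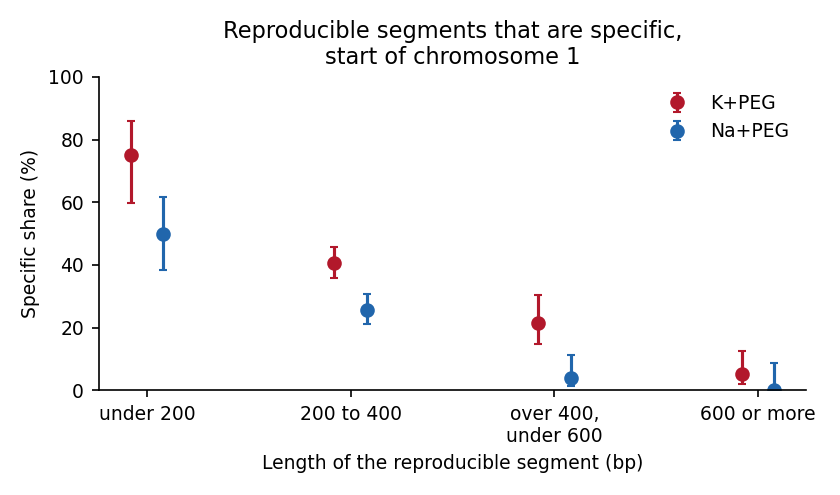
Share (%) of reproducible segments that are specific to their condition, by segment length (bp), for K+PEG and Na+PEG on the first 5.86 Mb of chromosome 1; points are shares and bars 95% Wilson intervals. Under K+PEG the share went from 75% under 200 bp to 5.13% at 600 bp or more.

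On this stretch 4 of the 205 K+-specific rows were 600 bp or longer (1.95%). This share was below the 4.62% of the whole list, so these 4 rows may not stand for the others. They stood far apart in strength. The row at Chr1:4303827-4304694 (868 bp) had a fold enrichment of 11.9 and 14.0 in K+PEG replicates 1 and 2, above 98.9% and 99.4% of the peaks of these lists. Its Na+PEG replicate 1 peak of 931 bp reached 6.06, above 94.1% of that list, and Na+PEG replicate 2 had no peak there. It was thus a strong and long peak in 3 of 4 libraries, and it counts as K+-specific because 1 Na+PEG library lacked a call.

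The row at Chr1:4476584-4477235 (652 bp) had 5.23 and 8.11 in the K+PEG libraries, 4.28 in Na+PEG replicate 1 and 3.40 in Na+PEG replicate 2. All 4 libraries therefore had a peak under it. The Na+PEG peaks were short, with 278 and 200 bp, and lay at different ends with 210 bp between them, so that they shared no segment. Here the row is specific because the sodium peaks did not overlap each other.

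The row at Chr1:5172182-5172832 (651 bp) had 5.61 and 5.29 in the K+PEG libraries and 4.03 in Na+PEG replicate 1, whose peak of 641 bp covered 88.3% of it. No peak was called in Na+PEG replicate 2. The row at Chr1:2528970-2529640 (671 bp) was the weakest, with 4.30 and 4.56 in the K+PEG libraries, and the only one without a peak in either Na+PEG library. A Na+-specific row nevertheless lay 1.76 kb from it.

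In each K+PEG library the 4 rows exceeded the median fold enrichment under the 149 K+-specific rows of 200 to 400 bp, which was 3.99 in replicate 1 and 3.77 in replicate 2. The strongest of those shorter rows reached 12.5 and 10.9, so that only the 868-bp row in replicate 2 exceeded them all. Overlap with a peak of at least 1 Na+PEG library was found for 3 of the 4 long rows, beside 70.7% of all 205 K+-specific rows, so the long rows were near the background in this respect. The overlap came from replicate 1 in 3 cases and from replicate 2 in 1 case. Of this pair, the first replicate was sequenced more deeply by the study's own account, and the part of depth was not tested. The number of long rows moved by more than 1.5 times when 3 of the 4 libraries were left out in turn. With the specific rows rebuilt, it was 32 without K+PEG replicate 1 and 21 without K+PEG replicate 2, where whole peaks no longer had to be reproducible. It was 3 without Na+PEG replicate 1 and 1 without Na+PEG replicate 2.

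**Figure D2:**
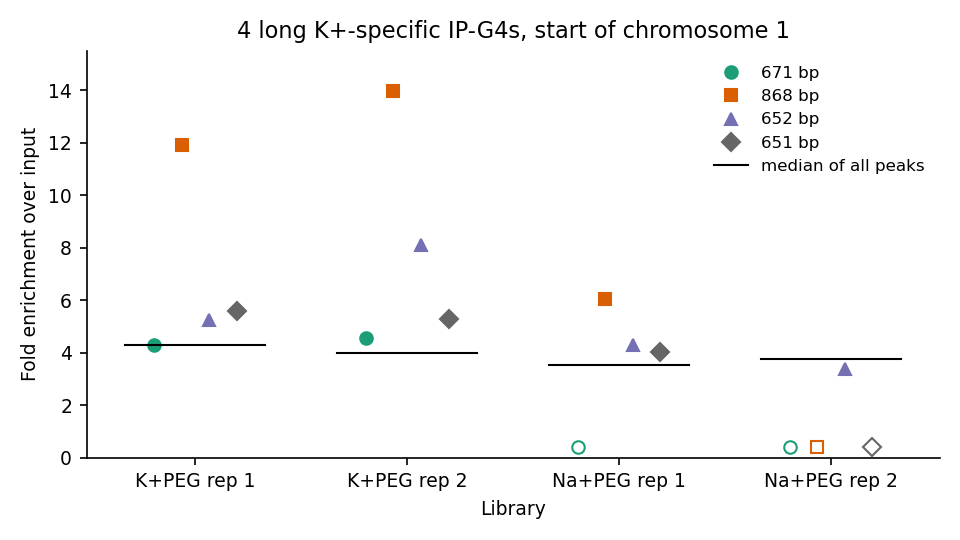
Fold enrichment over Input of the peak under each of the 4 long K+-specific IP-G4s at the start of chromosome 1, in each library; filled symbols are called peaks, open symbols near the axis mark libraries without a call and carry no value, and lines are the medians of all peaks of a library on this stretch. The 868-bp row stood highest in both K+PEG libraries, at 11.9 and 14.0.

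Every one of the 12 chromosomes carried long K+-specific IP-G4s, at a mean spacing of 1 per 483 kb, but not in the same proportion. Chromosome 4 had the most, with 90 of its 1593 K+-specific rows (5.65%, 95% Wilson interval 4.62 to 6.89), and chromosome 9 the fewest, with 44 of 1088 (4.04%, 3.03 to 5.38). By share, chromosome 11 with 71 of 1249 (5.68%, 4.53 to 7.11) stood level with chromosome 4, followed by chromosome 10 with 60 of 1090 (5.50%, 4.30 to 7.02). At the other end, chromosome 1 had 65 of 1862 (3.49%, 2.75 to 4.42) and chromosome 3 had 53 of 1500 (3.53%, 2.71 to 4.59). The interval of chromosome 4 did not overlap those of chromosomes 1 and 3, and the interval of chromosome 11 did not overlap that of chromosome 1, whereas those of all neighbours in this order overlapped. The share was 4.65% on chromosomes 2 (72 rows) and 5 (68 rows), 4.40% on chromosome 6 (61 rows), 4.37% on chromosome 7 (59 rows), 4.96% on chromosome 8 (65 rows) and 5.06% on chromosome 12 (65 rows).

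The comparison rows were more numerous on each chromosome, and their shares therefore less subject to counting error. Rows of 200 to 400 bp made up between 64.2% (chromosomes 4, 8 and 11) and 69.2% (chromosome 2) of the K+-specific rows of a chromosome. Per Mb of the span covered by specific rows, long rows ranged from 1.46 on chromosome 3 to 2.59 on chromosome 10, and comparison rows from 27.6 on chromosome 11 to 32.4 on chromosome 5. Chromosome 1 thus held 8.41% of the long rows and 11.3% of the comparison rows, and chromosome 4 held 11.6% and 9.17%. The length within the class varied little between chromosomes, with medians from 673 bp on chromosome 12 to 713.5 bp on chromosome 5. The longest row of a chromosome ranged from 979 bp on chromosome 2, the only one without a row of 1000 bp, to 1847 bp on chromosome 11. Rows of one genome are not replicates, and these differences were described and not tested.

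**Figure D3:**
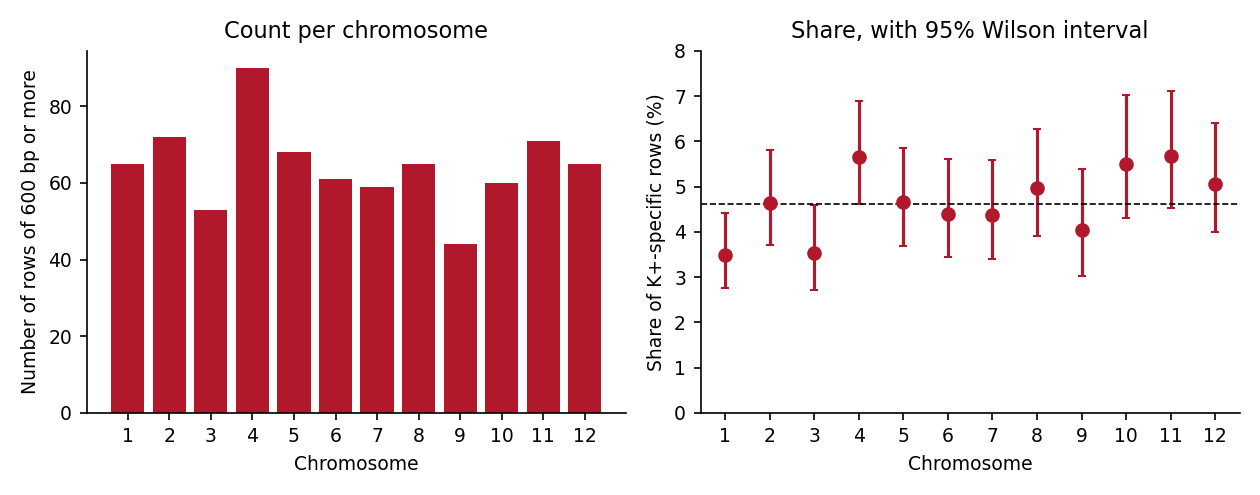
Left, number of K+-specific rows of 600 bp or more on each chromosome; right, their share (%) of the chromosome's K+-specific rows with 95% Wilson intervals, the dashed line marking 4.62% for the genome. The points of chromosomes 4, 10 and 11 are the highest. The intervals of chromosomes 1 and 3 lie wholly below the line, and those of all other chromosomes include it.

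The gap from a long row to the nearest other K+-specific row, edge to edge, had a median of 4.75 kb (95% order-statistic interval 4.12 to 5.62, n = 773), with quartiles of 1.42 and 13.2 kb. For rows of 200 to 400 bp the median was 6.08 kb (5.83 to 6.31, n = 11154), with quartiles of 1.62 and 14.7 kb. These intervals did not overlap, and the median was smaller for long rows on 10 of 12 chromosomes. The comparison rows, however, had the widest gaps of the 4 length classes. The median was 5.06 kb (4.44 to 5.55) for rows over 400 and under 600 bp, 5.22 kb (4.76 to 5.63) for rows under 200 bp and 5.77 kb (5577 to 5997 bp) for all rows under 600 bp. Each of these intervals overlapped that of the long rows, so nearness to other K+-specific rows was not particular to the long ones. The widest contrast as a ratio was on chromosome 8, at 2.44 against 5.46 kb. As a difference in kb it was on chromosome 2, at 4.02 against 7.09 kb. The exceptions were chromosome 10, at 7.94 against 6.28 kb, and chromosome 6, at 6.70 against 6.64 kb. The difference from the comparison rows was seen at 5 kb and not at 1 kb. Another K+-specific row was found within 1 kb of 143 long rows (18.5%, 95% Wilson interval 15.9 to 21.4), where all K+-specific rows gave 19.4% and the comparison rows 18.5%. Within 5 kb it was 51.0% (47.4 to 54.5) for long rows, 46.9% for all K+-specific rows and 45.7% (44.8 to 46.6) for the comparison rows. Rows over 400 and under 600 bp had 49.8% (47.7 to 51.9) and rows under 200 bp 48.8%, near the value of the long rows. No row of any length lay closer than 110 bp to another, a floor that all length classes shared.

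The gaps were also compared within regions. Against the comparison rows of its own 1-Mb bin, a long row was nearer than their median in 401 of 773 cases (51.9%, 95% Wilson interval 48.4 to 55.4), an interval that includes an even split, while 56.3% (52.8 to 59.7) were nearer than the median of all comparison rows. The bins were also ordered by their number of shorter rows and divided into 4 classes of like size. In the densest class, the median gap was 3.48 kb for long and 3.50 kb for comparison rows. In the next denser one it was 4.33 kb (3.61 to 5.83) and 6.37 kb (5.96 to 6.81), with intervals that did not overlap. In the second sparsest class it was 6.26 kb (4.17 to 8.61) and 7.66 kb (7.14 to 8.18), and in the sparsest 8.99 kb (5.54 to 11.9) and 9.67 kb (8.78 to 10.5), both with overlapping intervals. The median was thus lower for long rows in each of the 4 classes, by amounts that exceeded counting error in 1 of them. Length beyond 600 bp made no visible difference, with medians of 4.43 kb from 600 to under 800 bp, 5.83 kb from 800 to under 1000 bp and 4.69 kb at 1000 bp or more, all with overlapping intervals.

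To Na+-specific rows the distances were alike for both classes. The nearest one was a median of 14.7 kb (13.3 to 15.8) from a long row and 14.3 kb (13.9 to 14.7) from a comparison row, and the median was smaller for long rows on 5 of 12 chromosomes. A Na+-specific row within 1 kb was found for 57 long rows (7.37%, 95% Wilson interval 5.73 to 9.43), beside 7.38% of all K+-specific rows. The nearest specific row of either kind was Na+-specific for 253 long rows (32.7%, 29.5 to 36.1) and for 32.0% of the comparison rows. Rows of 1000 bp or more, with a median of 11.2 kb (6.74 to 16.5, n = 56), did not stand apart beyond counting error. The row farthest from any Na+-specific one, at Chr11:12352029-12352903 (875 bp), had a gap of 227 kb and lay near the longest row of all. The most isolated row, at Chr8:27719954-27720707 (754 bp), was 109 kb from another K+-specific and 48.6 kb from a Na+-specific row.

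**Figure D4:**
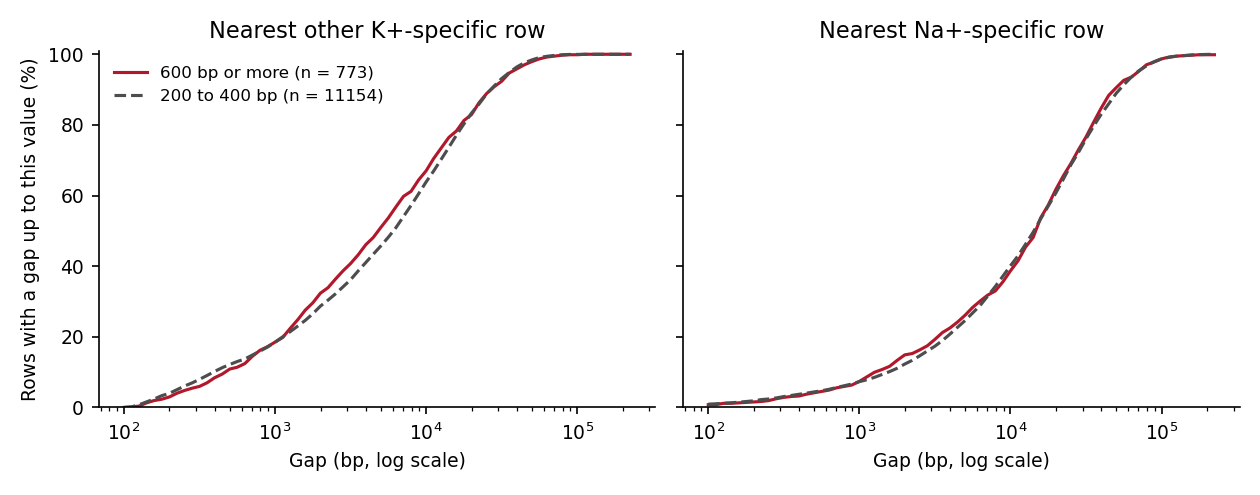
Cumulative share (%) of rows whose gap to the nearest other K+-specific row (left) or Na+-specific row (right) is at most the value on the log-scaled axis (bp), for rows of 600 bp or more and of 200 to 400 bp. The curves separate between about 1 and 10 kb on the left, with 51.0% against 45.7% at 5 kb, and run together on the right.

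The median gap between a long row and the nearest other long row was 133 kb (116 to 152), and 695 of the 773 had none within 10 kb. The other 78 formed 39 pairs, and no group of 3 occurred at this distance. The closest pair were Chr7:21338319-21338929 (611 bp) and Chr7:21339274-21339958 (685 bp), with 344 bp between them. The nearest other K+-specific row was itself 600 bp or longer for 57 long rows (7.37%, 95% Wilson interval 5.73 to 9.43), beside 4.53% of all K+-specific rows and 4.40% (4.04 to 4.80) of the comparison rows. Pairs count from both sides here, so this interval is too narrow. Likewise, 27.7% of long rows (24.6 to 30.9) and 20.3% of comparison rows (19.6 to 21.1) had a long row within 50 kb, measured between centres. In the same window a long row had on average 5.66 K+-specific and 2.61 Na+-specific rows around it, and a comparison row 5.24 and 2.46, which is a ratio of 2.17 and 2.13.

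Along the chromosomes, the long rows were unevenly placed. Of 379 bins of 1 Mb, 81 (21.4%) had no long row, 89 had 1, 88 had 2, 88 had 3 or 4 and 33 had 5 or more. Every bin had at least 1 comparison row. The 38 bins with most long rows held 30.3% of them, and the 38 bins with most comparison rows held 15.6% of those. The mean was 2.04 long rows a bin with a variance of 3.50, and the part of small counts in this concentration was not tested. The fullest bins were on chromosome 2 from 13 to 14 Mb and on chromosome 5 from 15 to 16 Mb, with 10 long rows each among 94 and 80 K+-specific rows. Chromosome 4 from 3 to 4 Mb followed with 9 of 69. With 8 long rows each came the bins on chromosome 5 from 10 to 11 Mb, on chromosome 8 and on chromosome 10 from 12 to 13 Mb, and on chromosome 12 from 6 to 7 Mb and from 11 to 12 Mb. In these 8 bins long rows made up 8.51% to 14.8% of the K+-specific rows, but the bins were ranked on that very number.

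In contrast, whole stretches of several Mb with many shorter rows had no long one. Chromosome 4 from 23 to 27 Mb held 165 K+-specific rows, chromosome 6 from 0 to 4 Mb held 161, and the end of chromosome 3 from 33 Mb held 125, each with 0 rows of 600 bp or more. These stretches were picked for that 0, so it sets no limit on their share. Shorter stretches of this kind, of 3 bins each, lay on chromosome 6 from 21 to 24 Mb with 130 rows and on chromosome 7 from 25 to 28 Mb with 88 rows. Chromosome 4 thus had the most long rows of all and also one of the widest stretches without any.

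When the span covered by specific rows was divided into 10 equal parts on each chromosome, the share of long rows was between 4.62% and 5.95% in the first 6 parts and between 2.80% and 3.98% in the last 4. The first 6 parts held 559 long rows of 10752 (5.20%, 95% Wilson interval 4.80 to 5.63) and the last 4 held 214 of 5973 (3.58%, 3.14 to 4.08). The share was higher in the first 6 parts on 11 of 12 chromosomes, with chromosome 9 as the exception at 3.92% and 4.28%. It was most uneven on chromosome 4, with 6.91% (5.53 to 8.60) and 3.17% (1.99 to 5.01). Rows of 200 to 400 bp leaned the other way, with 65.6% and 68.7% of the K+-specific rows. The point of division was chosen after these shares had been seen, and the difference was not tested. The share varied less between the 4 classes of bins ordered by density of shorter rows. In the sparsest and second sparsest it was 4.61% (3.90 to 5.45) and 4.16% (3.57 to 4.84). In the next denser and the densest it was 4.35% (3.78 to 4.99) and 5.15% (4.61 to 5.75). It did not rise at each step, and all 4 intervals overlapped. The densest class held 37.9% of the long and 33.1% of the comparison rows. Across the 379 bins, counts of long and comparison rows had a Pearson's r of 0.38 and a Spearman's rho of 0.28. The counts of long and Na+-specific rows had an r of 0.32 and a rho of 0.32. For comparison and Na+-specific rows the r was 0.39 and the rho 0.35. These coefficients describe bins of one genome, which are not independent samples.

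**Figure D5:**
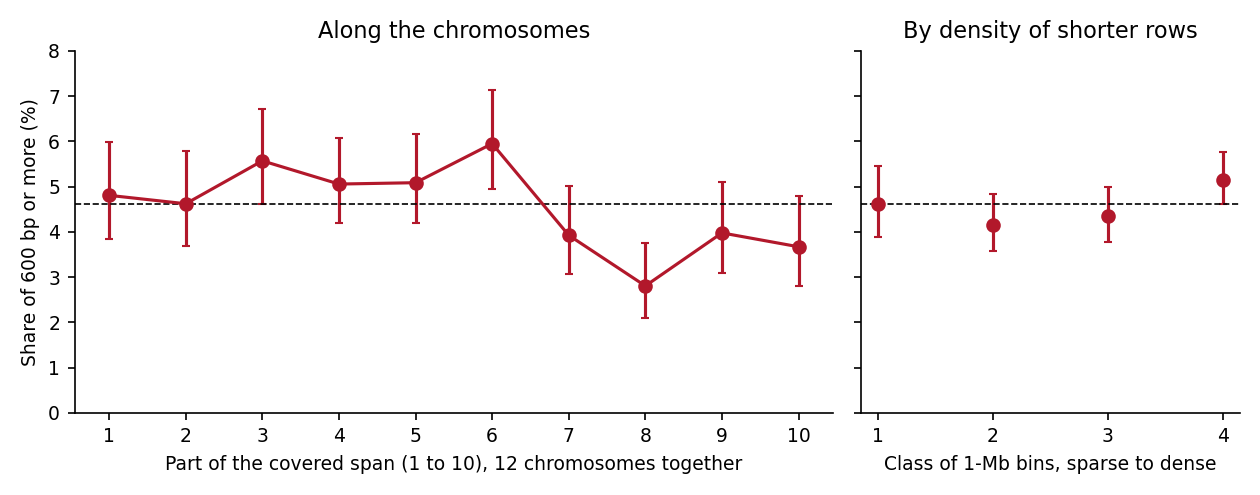
Share (%) of K+-specific rows that are 600 bp or more, with 95% Wilson intervals, by part of the covered span, numbered 1 to 10, over all 12 chromosomes (left) and by 4 classes of 1-Mb bins ordered from few to many K+-specific rows under 600 bp (right); the dashed line is 4.62%. The share drops from 5.95% in part 6 to 2.80% in part 8.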

How the data were processed

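BG4-DNA-IP-seq was performed on 2 K+PEG, 2 Na+PEG and 2 Input libraries. Reads were trimmed (Trim Galore), aligned (BWA) to MSU v7.0, freed of duplicates (SAMtools) and used for peak calling per library against Input (MACS) by the authors. The deposited fold enrichment over Input is a ratio from the peak caller, given as it stands. The deposited −log10 of the p-value and q-value, and the score derived from them, were not used. The specific lists, made by the authors from all 4 libraries, contain only positions. The lists of single libraries used here end on chromosome 1, and their incomplete last lines were left out. Read depth is not in the lists.

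Members were rows of at least 600 bp. Gaps were taken between edges, bins of 1 Mb were assigned by the row's centre, and overlaps were counted from 1 bp. Rebuilding the specific rows on the stretch gave all 205 K+-specific and 121 Na+-specific rows. Shares have 95% Wilson intervals, and medians 95% binomial order-statistic intervals. No test was made, since the condition and the length chose the rows and regions are not replicates. Python 3.11.15, numpy 2.4.6, scipy 1.17.1 and matplotlib 3.10.9 were used, and the functions were tested on simulated data. Loci named are the 10 longest rows, those next to 600 bp, those on the stretch, the closest pair, the most isolated rows and the fullest bins. The row farthest from a Na+-specific row, the stretches without long rows, the shares by segment length and the 2-part division were added after their values were seen. Members and lists were chosen with earlier results of these data known. Alternatives were other thresholds, distances, bins and comparison rows, merged rows, and each library left out. No genome sequence or gene annotation was used.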

Additional observations from a re-analysis of the deposited data

How the results depend on the processing

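Of 53 alternative values for 26 results, 20 stayed within the interval of the main value (for counts, within 1.5 times), 33 moved and none reversed. Most of these results are single counts, shares or medians without a direction, so they could not reverse. Of the 33, 12 are chromosome shares taken over long and comparison rows together, where the denominator shrinks by construction. Counts and shares at another length threshold, distance limit or bin size also change by construction. With a threshold of 500 or 700 bp there were 1516 or 397 long rows, whose median gap to other K+-specific rows was 4927 or 4691 bp. No rows were 100 bp or less apart, so merging changed nothing. For comparison rows, the median gap to other K+-specific rows was 5768.5 bp with all rows under 600 bp and 6370 bp between centres, against 6080 bp. The long rows' medians were 4748 bp between edges and 5242 bp between centres. With all rows under 600 bp, the interval of 5577 to 5997 bp overlapped that of the long rows (4118 to 5623 bp), so the separation from rows of 200 to 400 bp was lost. Another K+-specific row within 500 bp or 5 kb was found for 10.7% or 51.0% of long and 12.1% or 45.7% of comparison rows, and a Na+-specific row for 4.14% or 26.1% and 4.39% or 24.6%. Bins of 500 kb or 2 Mb left 40.8% or 9.42% of bins without a long row, and the fullest 10% of bins then held 35.3% or 26.1% of long rows. Against comparison rows of the same bin, an alternative chosen after seeing the data, 51.9% of long rows were nearer to a K+-specific row, not 56.3%. With each library left out in turn, long rows on the stretch of chromosome 1 numbered from 1 to 32, and those overlapping a Na+PEG peak from 1 (without Na+PEG replicate 1) to 3. No paired analysis was possible because no result comes from a test. The shares by length on chromosome 1 rest on 4 long K+-specific rows, and the depth of the libraries, which the lists lack, limits every absence of a peak.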

Other observations

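The long Na+-specific rows were few on each chromosome. Of the 54 rows of 600 bp or more, chromosomes 4 and 5 had 8 each, chromosome 11 had 6, and chromosome 7 had 1. Their median length was 671 bp, against 703 bp for the 773 long K+-specific rows, and none of them lay on the first 5.86 Mb of chromosome 1.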
